A study of Mus musculus with 6 samples.

Results

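The galectin family was examined in a mouse acute myeloid leukaemia line treated with DB2313, a small molecule described by the labels as an inhibitor of the transcription factor PU.1. The family here comprised 8 galectin genes (Lgals1, Lgals2, Lgals3, Lgals4, Lgals7, Lgals8, Lgals9 and Lgals12) and Lgals3bp, which encodes a secreted glycoprotein that galectins bind, 9 of the 22180 genes measured. The genes were chosen by their family name with the DB2313 and vehicle values already known, and Lgals3 and Lgals9 were selected on their opposite differences in that same comparison. The members' differences are therefore given as a description, with their error and without a p-value. Each member was represented by 1 probe set row with a single gene symbol, and for Lgals3bp, which had 2 such rows, by the brighter row over the 6 arrays.

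The 2 groups were PU.1low URE-/- cells exposed to 330 nM DB2313 for 24 h and the same cells exposed for 24 h to an equal volume of the vehicle, water, with 3 arrays in each. Cells of both groups came from 1 line, started from a leukaemic mouse without the upstream regulatory element (URE) of Spi1, the gene of PU.1, and carried low PU.1. The arrays are labelled as biological replicates, and since separate cultures are not stated, the errors measure the spread between these samples. Values are Affymetrix signals on the log2 scale, where a difference of 1 is a 2-fold difference, and the number of arrays limits the precision.

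The arrays resembled each other closely. The median signal over all rows lay between 4.77 and 4.82 on every array, and Pearson's r across genes was 0.996 within groups. Of the defining markers of myeloid progenitors, Elane had a mean signal of 13.05 in both groups, and 7 of the 8 markers lay above the median of all genes. None of 6 T lymphocyte markers and none of 5 megakaryocyte markers lay above it, against 1 of 6 B lymphocyte markers, 1 of 7 eosinophil, basophil and mast cell markers, 1 of 2 erythroid markers, 1 of 5 adipocyte markers, 2 of 11 macrophage markers, 2 of 9 mature neutrophil markers, 2 of 7 epithelial markers and 3 of 8 stromal markers. Among these markers, Cdh5 (listed as stromal, log2 difference 0.86) and Igll1 (B lymphocyte, 0.52) rose past a limma adjusted p of 0.05. S100a8 (mature neutrophil, -0.63) and Lep (adipocyte, -0.44) fell past it. All were named after their values were seen. Spi1 was itself 1.29-fold lower with DB2313 (limma adjusted p = 0.0342). Its signals were 6.52, 6.49 and 6.50 in DB2313 cells, against 6.79, 6.88 and 6.95 in vehicle cells. Leaving out any single array put the adjusted p of Spi1 between 0.0648 and 0.134.

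Galectins are lectins that bind beta-galactose-containing glycans through a conserved carbohydrate recognition domain. They are made in the cytosol and leave the cell without a classical signal peptide. Outside the cell they cross-link glycoproteins of the surface and matrix, and inside it several of them bind glycans exposed on damaged endosomes and lysosomes. The prototype members (Lgals1, Lgals2 and Lgals7 here) carry a single recognition domain and can form dimers. The chimera member Lgals3 joins its domain to a long flexible amino-terminal tail, and the tandem-repeat members (Lgals4, Lgals8, Lgals9 and Lgals12) carry a pair of domains on 1 chain. In blood, galectin-3 is also known as the macrophage antigen Mac-2, and galectin-9 as an interferon-inducible ligand of the inhibitory receptor TIM-3.

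Within the family, Lgals3 fell and Lgals9 rose with DB2313, and none of the other 7 members passed an adjusted p of 0.05 in limma, although 3 of these 7 had an unadjusted p under 0.05, as did 12.7% of all genes. These 2 of 9 members compare with 1.81% of all genes, or 401 genes, past the same threshold. As both were singled out on this comparison, nothing is read from that count. The signals of the 2 groups did not overlap for 5 of the 9 members, Lgals1, Lgals3, Lgals3bp, Lgals4 and Lgals9, against 19.3% of all genes. Without the 2 members selected on this comparison, the groups lay apart for 3 of 7 (42.9%). The other 7 were also chosen with the values known, so nothing is read from these counts either. The median log2 difference of the 9 members was 0.07, against -0.002 over all genes, with 7 members above 0 and 2 below. The plot of signal on each array shows the separation of the groups for Lgals3 and Lgals9 beside the overlap for most others.

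**Figure D1:**
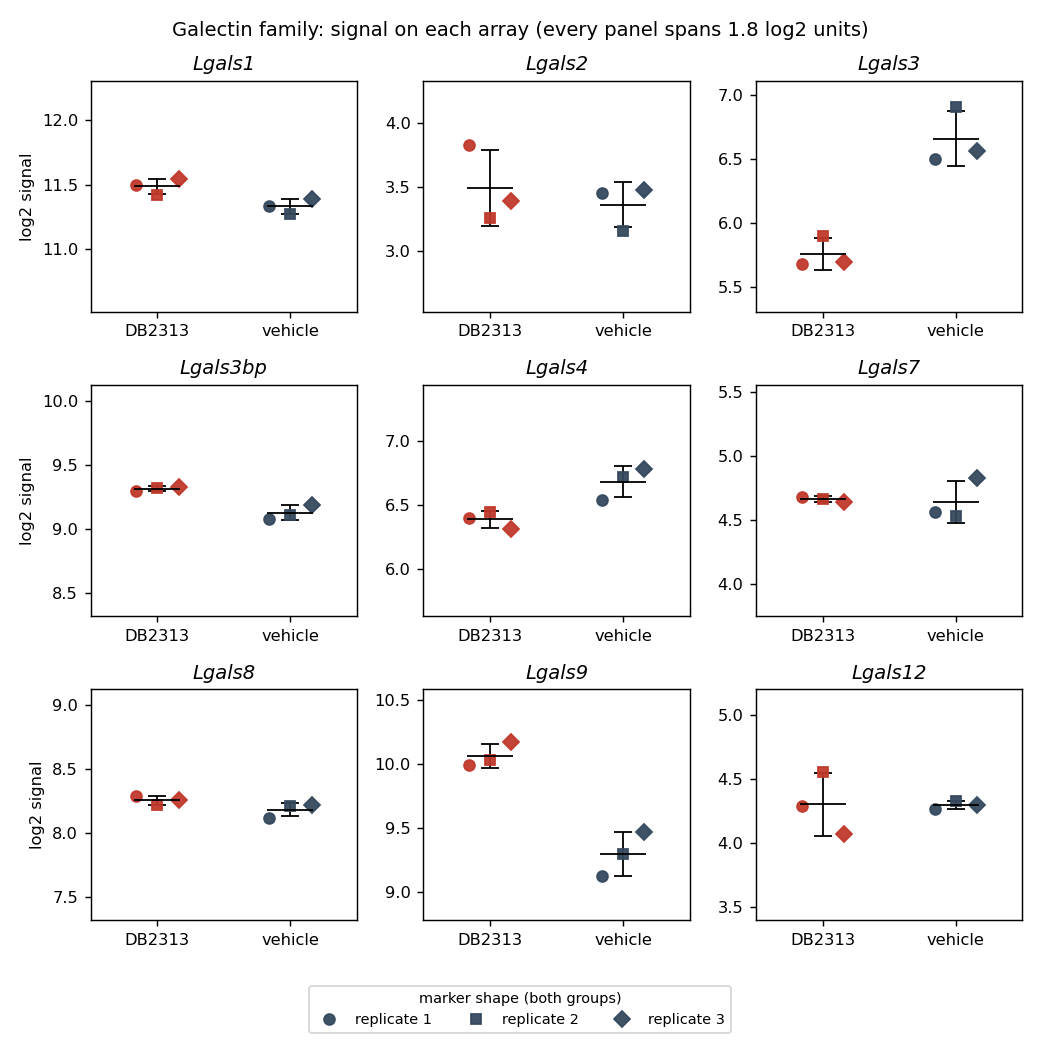
Signal of the 9 galectin family members on each array (y axis, log2 signal, each panel spanning the same width) in DB2313 cells (red) and vehicle cells (dark), with the group mean and SD as a horizontal line and bar (n = 3). Lgals3 lies between 5.68 and 5.90 in DB2313 cells and between 6.50 and 6.90 in vehicle cells, and Lgals9 between 9.99 and 10.17 in DB2313 cells and between 9.13 and 9.47 in vehicle cells.

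Lgals3, the chimera galectin, had signals of 5.68, 5.90 and 5.69 in DB2313 cells, against 6.50, 6.90 and 6.56 in vehicle cells. Every DB2313 array lay below every vehicle array, with a gap of 0.61 between the highest DB2313 and the lowest vehicle value, which exceeded the range within either group (0.22 in DB2313 and 0.40 in vehicle cells). Replicate 2 was the highest array in both groups. The mean was 5.76 ± 0.12 in DB2313 cells and 6.66 ± 0.21 in vehicle cells (log2, SD, n = 3), a log2 difference of -0.90 (SE 0.117, 95% confidence interval -1.17 to -0.63). On the linear scale Lgals3 was 1.87-fold lower with DB2313. By absolute log2 difference it ranked 54 of the 22180 genes. Adding 32 to every linear signal, which damps dim rows, gave a log2 difference of -0.63.

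Since galectin-3 is abundant in macrophages, the macrophage markers are set beside it. None of the 11 markers passed the threshold in either direction, against 1.81% of all genes. Their log2 differences were above 0 for 3 (Mrc1, C1qa and C1qc, named after their values were seen) and below 0 for 8. Their summed linear signal lay between 330 and 355 in DB2313 cells and between 382 and 414 in vehicle cells. That separation was carried by the brightest, Cd68, encoding a lysosomal membrane protein of phagocytes. Cd68 had means of 6.99 in DB2313 cells and 7.46 in vehicle cells. It was the 1 marker with an unadjusted limma p under 0.05, against 12.7% of all genes. Without Cd68 the sums overlapped, between 206 and 218 in DB2313 cells and between 208 and 221 in vehicle cells. The summed signal of 9 mature neutrophil markers lay between 866 and 1028 in DB2313 cells and between 1246 and 1460 in vehicle cells. It was carried by S100a8, which encodes a calprotectin subunit and fell, and without it the sums overlapped, between 199 and 206 in DB2313 cells and between 193 and 201 in vehicle cells. In each list only 2 markers, the brightest among them, lay above the median of all genes. The sums without the brightest thus came mostly from dim rows, and their overlap does not show that the other markers were unchanged. The part of either list in the Lgals3 difference was not tested, and in such bulk samples fewer cells of a type and less RNA per cell cannot be told apart.

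Lgals9, a tandem-repeat galectin, had signals of 9.99, 10.03 and 10.17 in DB2313 cells, against 9.13, 9.30 and 9.47 in vehicle cells. Every DB2313 array lay above every vehicle array, and the gap between the groups was 0.52, against a range of 0.18 within DB2313 and of 0.35 within vehicle cells. Vehicle replicate 1 was the lowest of the 6 arrays. The mean was 10.06 ± 0.09 in DB2313 cells and 9.30 ± 0.17 in vehicle cells (log2, SD, n = 3), a log2 difference of 0.76 (SE 0.099, 95% confidence interval 0.53 to 0.99). Lgals9 was thus 1.70-fold higher with DB2313 and ranked 95 of the 22180 genes by absolute log2 difference. Its signal lay high on the scale, and adding 32 to the linear signals left the log2 difference at 0.73.

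The count of 2 members past the threshold fell in some fits on 5 arrays, whereas the sizes of the differences moved little. Over all genes the number past the threshold fell too, from 401 to between 136 and 187, whichever array was left out. The count of members was 0 without DB2313 replicate 3. It was 1 without DB2313 replicate 1, where Lgals3 did not pass, or without vehicle replicate 2, where Lgals9 did not pass. On all 6 arrays it was 3 with the offset of 32 or with a trended and robust prior, where Lgals3bp passed too. Over the 6 fits on 5 arrays, the log2 difference of Lgals3 stayed between -0.98 and -0.78 and that of Lgals9 between 0.68 and 0.85.

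**Figure D2:**
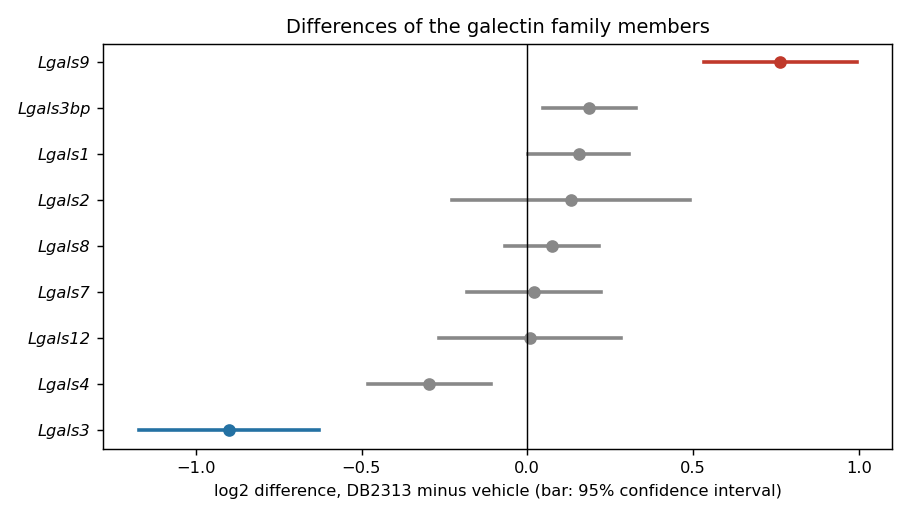
Log2 difference, DB2313 minus vehicle (x axis), for each of the 9 members (y axis); points are differences of group means and bars their 95% confidence intervals from limma (n = 3 per group), with Lgals9 in red, Lgals3 in blue and members that did not pass the threshold in grey. Lgals9 at 0.76 and Lgals3 at -0.90 lie on opposite sides of 0, and the other 7 members lie between -0.30 and 0.19.

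Among the remaining tandem-repeat members, Lgals4, known mainly from the epithelium of the gut, had signals of 6.40, 6.44 and 6.31 in DB2313 cells, against 6.54, 6.72 and 6.78 in vehicle cells. The groups did not overlap, but the gap between them was only 0.10. The means were 6.38 ± 0.07 in DB2313 cells and 6.68 ± 0.12 in vehicle cells (log2, SD, n = 3), a log2 difference of -0.30 (SE 0.080, 95% confidence interval -0.48 to -0.11). Of the 9 members, Lgals3 and Lgals4 were those with a difference below 0. Mouse Lgals4 has a close relative in some strains, Lgals6, and the probes were not checked here for sequence shared between them.

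Lgals8, whose product marks damaged vesicles and recruits an autophagy adaptor to them, had signals of 8.29, 8.22 and 8.26 in DB2313 cells, against 8.12, 8.21 and 8.22 in vehicle cells. The groups touched, and the log2 difference was 0.07 (95% confidence interval -0.07 to 0.22). Lgals12, known from fat cells, where its protein sits on lipid droplets, and from myeloid cells, had 4.29, 4.56 and 4.07 in DB2313 cells, against 4.27, 4.33 and 4.30 in vehicle cells. The 3 vehicle arrays lay inside the DB2313 range, and the log2 difference was 0.01 with an interval from -0.27 to 0.28. The DB2313 arrays of Lgals12 varied far more than the vehicle arrays, with an SD of 0.25 in DB2313 cells and 0.03 in vehicle cells.

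The prototype member Lgals1, whose secreted protein can kill activated T cells, had signals of 11.50, 11.42 and 11.54 in DB2313 cells, against 11.33, 11.27 and 11.39 in vehicle cells. The groups lay apart by 0.03, less than the range within either of them (0.12 each). The log2 difference was 0.16 (SE 0.065, 95% confidence interval 0.003 to 0.31), or 1.11-fold. In both groups replicate 2 was the lowest and replicate 3 the highest. Lgals2 had 3.83, 3.26 and 3.39 in DB2313 cells, against 3.45, 3.16 and 3.48 in vehicle cells. Its groups overlapped, DB2313 replicate 1 stood highest, and without that array the log2 difference turned to -0.04, against 0.13 with all 6 arrays (95% confidence interval -0.23 to 0.49). Lgals7, known from stratified epithelium, had 4.68, 4.66 and 4.64 in DB2313 cells, against 4.56, 4.53 and 4.83 in vehicle cells. Vehicle replicate 3 lay above all DB2313 arrays and the other vehicle arrays below them, and the log2 difference was 0.02 (95% confidence interval -0.18 to 0.22).

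Lgals3bp, the secreted ligand also called Mac-2 binding protein, had signals of 9.30, 9.32 and 9.33 in DB2313 cells, against 9.08, 9.11 and 9.19 in vehicle cells. The groups lay apart by 0.10, and the DB2313 arrays differed by only 0.03 among themselves. The log2 difference was 0.19 (SE 0.060, 95% confidence interval 0.05 to 0.33), or 1.14-fold, opposite in sign to that of Lgals3. The dimmer row of the gene had 7.06, 7.17 and 7.17 in DB2313 cells, against 6.99, 7.05 and 7.08 in vehicle cells. There the groups overlapped, and the log2 difference was 0.09. The mean of both rows gave 0.14.

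A row's brightness depends on its probes as well as on its transcript, so the members are not ranked against each other. The rows of Lgals2, Lgals7 and Lgals12 lay below the median of all genes on every array, which was between 5.15 and 5.21. The deposited table gives no background, so whether these 3 were above it is not known, and their small differences are at the dim end of the scale. The rows of Lgals1, Lgals9 and Lgals3bp lay above the 94th percentile of all genes by mean signal, and those of Lgals3 and Lgals4 at the 63rd and 66th.

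PU.1 and its ETS relatives bind DNA at a purine-rich core, GGAA, so the bases just before the start of both genes singled out by their values were read from RefSeq's promoter table (GRCm38.p6). Entries were found for 7 of the 9 members. The 250 bases before the start of Lgals3 (chr14:47373610-47373859, plus strand) and of Lgals9 (chr11:78984925-78985174, minus strand) are given 5′ to 3′ on the gene's strand, with each GGAA, on either strand, in capitals.
Lgals3: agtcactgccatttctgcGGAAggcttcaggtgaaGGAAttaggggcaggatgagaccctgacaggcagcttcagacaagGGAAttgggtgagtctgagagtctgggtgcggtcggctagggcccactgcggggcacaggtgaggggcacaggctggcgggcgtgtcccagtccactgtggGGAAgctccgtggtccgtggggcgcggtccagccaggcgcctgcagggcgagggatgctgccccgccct
Lgals9: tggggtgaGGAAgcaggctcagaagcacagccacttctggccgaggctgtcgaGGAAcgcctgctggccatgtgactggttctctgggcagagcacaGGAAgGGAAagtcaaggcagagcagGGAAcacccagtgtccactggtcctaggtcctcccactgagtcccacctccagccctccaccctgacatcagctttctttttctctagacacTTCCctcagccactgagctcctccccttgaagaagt

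In this window Lgals3 had 4 matches to GGAA and Lgals9 had 6. All 4 matches of Lgals3 and 5 of the 6 of Lgals9 lay on the gene's own strand. Both strands were searched, and 93.4% of 32851 promoters of that length held at least 1 match, 33.4% at least 4 and 8.69% at least 6. The other 5 members with an entry had between 0 (Lgals3bp) and 2 (Lgals2 and Lgals4) matches. GAGGAAGT, a longer form of the PU.1 motif, was found before none of the 7, and in 2.44% of all promoters. Lgals9 alone among the 7 had a match to GGAANNGAA, the pattern of paired ETS and interferon regulatory factor sites, 145 to 153 bases before its start and overlapping 2 of its GGAA cores. It also alone had a match to GAAANNGAA, the pattern of interferon response elements, 46 to 54 bases before its start on the opposite strand. Those patterns occur in 6.99% and 7.13% of all promoters, and TATAAA (12.4%) and CACGTG (6.02%) were found before none of the 7. A match describes letters in the window and is neither evidence of binding nor of a cause.

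The genes whose profile over the 6 arrays was most like that of Lgals3 were Nt5e, Fosl2, Tgm2 and Hpse, with root mean square differences of 0.099, 0.104, 0.106 and 0.110 on the log2 scale after each gene was centred on its mean (17371 genes compared). Nt5e encodes the surface enzyme CD73, which makes adenosine, and had 8.42, 8.51 and 8.55 in DB2313 cells, against 9.24, 9.46 and 9.18 in vehicle cells. Fosl2 encodes an AP-1 factor, Tgm2 a protein cross-linking enzyme and Hpse heparanase, and their log2 differences were -0.91, -0.88 and -0.84, against -0.90 for Lgals3. For Lgals9 the nearest were Cyfip2 (0.049), Slc32a1 (0.074), Cd274 (0.078) and Osbpl5 (0.090). Cyfip2, a component of the WAVE actin regulatory complex, had 7.49, 7.67 and 7.79 in DB2313 cells, against 6.74, 6.89 and 7.04 in vehicle cells. Like Lgals9, it was lowest in replicate 1 and highest in replicate 3 of both groups. Cd274, which encodes the checkpoint ligand PD-L1, had 7.86, 7.82 and 7.89 in DB2313 cells, against 7.06, 7.23 and 7.25 in vehicle cells, and its log2 difference was 0.68, beside 0.76 for Lgals9. Likeness over 6 arrays rests chiefly on the separation of the groups, as the plot of nearest profiles shows.

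**Figure D3:**
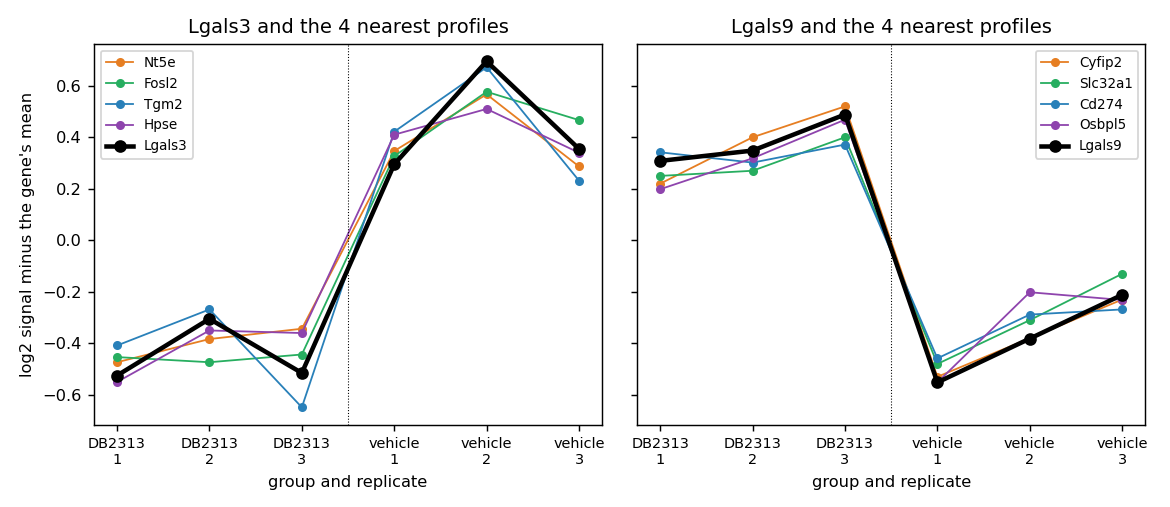
Log2 signal minus the gene's own mean over the 6 arrays (y axis) on each array (x axis, DB2313 arrays left of the dotted line, vehicle arrays right of it) for Lgals3 and Lgals9 (black) and the 4 genes nearest to each (colours); lines only connect the points of a gene. All 5 profiles of the left panel are lower on the DB2313 arrays and all 5 of the right panel higher, and Cyfip2 follows Lgals9 with a root mean square difference of 0.049.

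Among surface and matrix proteins that galectins bind, 4 fell, 3 rose and 38 of 45 did not pass (15.6% called, against 1.81% of all genes). Their median log2 difference was -0.02. This list and those that follow were drawn up with earlier results of these data known. Nothing is therefore read from their shares of called genes. Fn1, which encodes the matrix protein fibronectin, had 6.40, 6.14 and 6.49 in DB2313 cells, against 7.65, 7.43 and 7.76 in vehicle cells (log2 difference -1.27, limma adjusted p = 0.0030). The endocytic receptor gene Lrp1 fell by 0.72 on the log2 scale (limma adjusted p = 0.00538), as did Tfrc, the transferrin receptor (limma adjusted p = 0.00372), which galectin-3 binds. Clec7a, the beta-glucan receptor Dectin-1, rose by 0.81 (limma adjusted p = 0.0063). Chosen after their values were seen, the other 3 were Cd44, the hyaluronan receptor (-0.52), Igll1, part of the pre-B cell receptor and a ligand of galectin-1 (0.52), and Cntn1, a neural adhesion gene (0.34). On 5 arrays, Cd44 missed the threshold in 5 of the 6 fits, with an adjusted p of at most 0.0805, and Cntn1 in all 6, with at most 0.165. Havcr2, the gene of TIM-3, had means of 3.10 in DB2313 cells and 2.96 in vehicle cells and did not pass (log2 difference 0.14, 95% confidence interval -0.08 to 0.37), and Ptprc, the gene of CD45, had 3.31 in DB2313 cells and 3.32 in vehicle cells. Both were named after their values were seen. Their rows were dim, at the 9.92 percentile of all genes by mean signal for Havcr2 and the 14.6 percentile for Ptprc. Whether these rows report the transcripts is not known.

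Of 44 measured genes that build or cap the glycans galectins bind, 3 rose, none fell and 41 did not pass (6.82% called, against 1.81%), with a median of 0.02. B3gnt5, which starts lacto-series glycolipids, was 3.17-fold higher (log2 difference 1.66, limma adjusted p = 0.00122). Mgat4a, which adds a branch to N-glycans, had 9.22, 9.29 and 9.40 in DB2313 cells, against 8.36, 8.26 and 8.24 in vehicle cells, a 2.03-fold rise (limma adjusted p = 0.0010). Mgat5, whose branch is extended into chains that galectin-3 prefers, had 9.74, 9.73 and 9.74 in DB2313 cells, against 9.32, 9.29 and 9.31 in vehicle cells (log2 difference 0.43, limma adjusted p = 0.0112). The Mgat5 signals varied little within either group (SD 0.0065 in DB2313 cells and 0.013 in vehicle cells). Even so, 5 of the 6 limma fits on 5 arrays missed the threshold, with an adjusted p of at most 0.0602.

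Of 44 genes of the response to damaged endosomes and lysosomes, in which galectin-3, galectin-8 and galectin-9 take part, 2 rose, none fell and the median was -0.001 (4.55% called, against 1.81% of all genes). These were Tax1bp1, an autophagy receptor (0.46, limma adjusted p = 0.0112), and Trim16, a ubiquitin ligase that works with galectin-3 (0.47, limma adjusted p = 0.0474). Trim16 missed the threshold in all 6 fits on 5 arrays, with an adjusted p of at most 0.159, and Tax1bp1 in 4 of them, with at most 0.0617. None of 17 reported intracellular partners passed, against 1.81% of all genes. Among them 1 had an unadjusted limma p under 0.05, against 12.7% of all genes. With so few genes, nothing is read from these counts. The largest differences were those of Axin1 (0.21) and Smn1 (-0.17). Neither of the galectin-like genes measured outside the family, Grifin (-0.04) and Lgalsl (0.03), passed.

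Genes tied to single members were also counted. Of 39 genes of the interferon response, known to induce Lgals9, Gbp7, an interferon-inducible GTPase, alone passed, with a rise of 0.50 (limma adjusted p = 0.0376), and missed the threshold in all 6 fits on 5 arrays, with an adjusted p of at most 0.150. The list had 2.56% called, against 1.81% of all genes, and a median of 0.02, beside the log2 difference of 0.76 of Lgals9. Of 31 genes of PPARG, C/EBP factors and lipid droplets, the setting of Lgals12, 7 fell and none rose (22.6% called), with a median of -0.04. Pparg, a nuclear receptor of lipid storage, was 3.83-fold lower (limma adjusted p = 0.000449), and Lpl, Abhd5 and Dgat1, of lipid uptake, breakdown and storage, had log2 differences of -0.94, -0.78 and -0.76. Chosen after their values were seen, Dgat2 (-0.72), Plin2 (-0.45) and Fabp5 (-0.35) complete the 7, of which Plin2 and Fabp5 missed the threshold in all 6 fits on 5 arrays, with an adjusted p of at most 0.141 for Plin2 and 0.156 for Fabp5. Lgals12 itself had a log2 difference of 0.01.

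**Figure D4:**
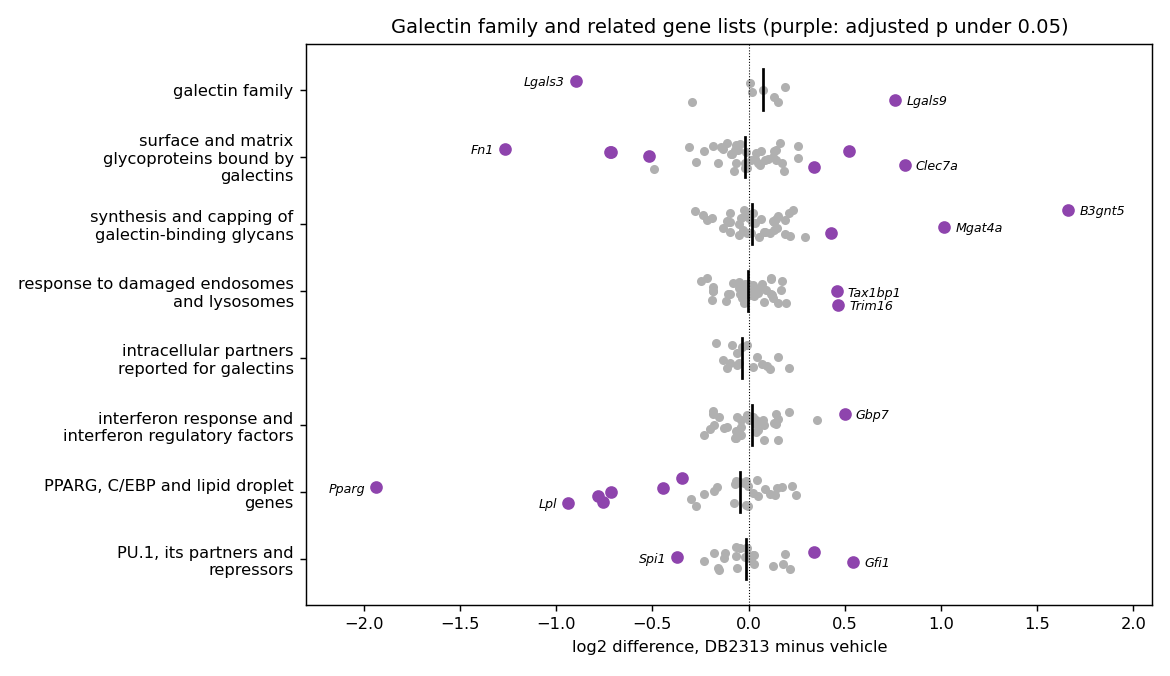
Log2 difference, DB2313 minus vehicle (x axis), of every measured gene of the galectin family and of 7 related lists (y axis), with genes past an adjusted p of 0.05 in purple, other genes in grey, the list median as a vertical line, and up to 2 of the purple genes with the largest differences named; vertical scatter within a list has no meaning. Medians lie between -0.04 and 0.07, and the purple genes of the glycan list lie above 0 and those of the lipid list below 0.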

How the data were processed

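RNA of 6 samples was profiled on Affymetrix arrays, 3 treated with DB2313 and 3 with vehicle. Values came from Affymetrix Expression Console, per the submitters' processing notes, with summarisation and build not stated there. In the authors' deposited table stand 41345 rows of log2 values, 1 per probe set and array, with close quartiles on all arrays, so an overall change in RNA content may be hidden. Platform annotation gave 1 symbol to 23521 rows and several to 1814, while 16010 rows were unnamed here. Only rows with 1 symbol were tested, with the brightest row kept per gene.

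Groups were compared with limma 3.58.1 in R 4.3.3 (lmFit and eBayes, 2-sided, Benjamini-Hochberg over 22180 genes at 0.05, no minimum fold). The script was tested on simulated data. Motifs and figures used Python 3.11.15. The members, the 8 lists, the markers and the tests were chosen with earlier results of these data known. Named were all members, Spi1, up to 4 called genes with the largest difference per list (with none called, 2 by largest difference), and for Lgals3 and Lgals9 the 4 genes with the nearest centred profiles, leaving out predicted genes, small RNAs and olfactory or vomeronasal receptors. Alternatives were 2 filters on dim genes, quantile and median scaling, an offset of 32, a trended prior, the replicate block, mean rows, all rows, a minimum fold of 1.5 and each array left out.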

Additional observations from a re-analysis of the deposited data

How the results depend on the processing

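With 3 arrays a group, calls near the threshold were lost easily. The number of genes past the threshold was 401. It was 799 without genes below the median signal, 830 with an offset of 32, 920 with a trended and robust prior, 142 when all rows were tested, 166 at a minimum fold of 1.5, and between 136 and 187 with 1 array left out. Members past the threshold numbered between 0 and 2 with 1 array left out, against 2, and 3 with the offset of 32 or the trended and robust prior, where Lgals3bp was added. Lgals3 and Lgals9 kept their direction in all 14 alternatives. Where groups do not overlap, as for both and for Lgals1, Lgals3bp and Lgals4, leaving out an array or adding the offset cannot turn the sign. The filters, the trended prior and the replicate block leave the difference itself unchanged. The count of 14 therefore says little about direction. The log2 difference of Lgals3 moved beyond the spread between replicates with the offset of 32 (-0.63). Of the other members, Lgals1, Lgals3bp, Lgals4 and Lgals8 kept their direction in all 14, whereas the dim members Lgals2, Lgals7 and Lgals12 changed sign in 1 or 2 of the 12 or 13 alternatives that held them. Over all genes, deviations from the group means correlated at 0.0226, 0.0781 and 0.00828 between arrays of the same replicate number. DB2313 replicates 2 and 3 correlated best with the vehicle array of their own number, and DB2313 replicate 1 with vehicle replicate 3. These correlations include many dim genes and cannot decide whether arrays of 1 number were handled together. With the replicate block, 190 genes passed, Lgals3 and Lgals9 among them. The cause of these changes was not tested.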

Other observations

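Of 25 measured genes of PU.1, its partners and its repressors, 1 fell, 2 rose and 22 did not pass (12% called, against 1.81% of all genes), and the median log2 difference was -0.01. As this list too was drawn up with earlier results of these data known, nothing is read from its share. Spi1 was the gene that fell. Gfi1, a repressor that opposes PU.1, had 10.79, 10.80 and 10.79 in DB2313 cells, against 10.23, 10.27 and 10.24 in vehicle cells (limma adjusted p = 0.00464). Myb, a factor of progenitor growth, rose by 0.34 on the log2 scale (limma adjusted p = 0.0336). It missed the threshold in all 6 fits on 5 arrays (adjusted p between 0.0939 and 0.143). The mean of all rows of Myb gave 0.30 and did not pass either (limma adjusted p = 0.0669).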
